A study of Mus musculus with 6 samples.

Results

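The 10 genes described here are the neuronal intermediate filament genes Ina, Nefl, Nefm, Nefh and Prph, the filament genes Nes and Vim, and the neural markers Ncam1, Tubb3 and Olig2. They were found by gene symbol in the platform annotation, which gave 11 probe sets for them, and they are 10 of the 19938 genes with a probe set of their own. Ina had a pair of probe sets and each other gene had 1. The genes were chosen by name with their measured log2 differences between the genotypes in view, so these differences are given as a description, without p-values.

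The samples were female mouse embryonic stem (ES) cells of a mixed C57BL/129 background, derived and kept with LIF in 2i, a medium whose inhibitors keep the cells naive. Each of 6 samples was hybridised to an Affymetrix MoGene 1.0 ST array. In 3 samples both Scc1 alleles were flanked by lox sites (lox/lox), and in 3 samples both were wild type (wt/wt). Cells of both genotypes carried ERT2-Cre, a recombinase switched on by 4-hydroxytamoxifen (4-OHT), and all were exposed to 4-OHT during 24 h. Its concentration is 80 nM in the sample labels, whereas the design text has mM. Scc1, whose current symbol is Rad21, encodes a core subunit of the cohesin ring. Samples without 4-OHT were not analysed here, so the loss of Rad21 and any earlier difference between the cells of the genotypes cannot be told apart. How many clones stand behind each genotype is not said in the labels.

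Intermediate filaments are rope-like polymers that give cells mechanical strength. Neurofilaments of mature axons are built from light, medium and heavy chains (Nefl, Nefm, Nefh) with alpha-internexin (Ina) or, mostly in peripheral neurons, peripherin (Prph), whereas dividing neural precursors use nestin (Nes) and vimentin (Vim). In ES cell cultures several of these genes are used as markers of cells that enter the neural lineage.

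Rad21 averaged 6.09 ± 0.04 in lox/lox cells, against 10.02 ± 0.03 in wt/wt cells (log2 intensity, mean ± SD, n = 3 each), a log2 difference of -3.92, so the arrays carried the loss that their labels name. Array medians lay between 4.85 and 4.94. The 95th percentile of 1023 olfactory receptor probe sets, 4.37 to 4.49 by array, is used below as a mark for the signal of genes that ES cells should not express. The 12 ES cell markers were above this mark on every array, and their summed linear intensity was 22091 to 24220 in lox/lox arrays, against 26240 to 27611 in wt/wt arrays. In the deviations from the genotype means, lox/lox replicate 3 and wt/wt replicate 2 had negative loadings on the first component (-0.537 and -0.576, the other 4 arrays 0.101 to 0.475). They are named below as the arrays that stood apart, and values without this pair are given where they bear on a result. Deviations cancel out within each genotype, so loadings of opposite sign must occur, and that of wt/wt replicate 1 (0.475) was nearly as large. The loadings therefore do not show that this pair is faulty. The design text calls the samples biological replicates, and p-values measure the spread between 3 of them per genotype.

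The promoters of Ina and Olig2 are shown because, of the members with a called difference, these had a promoter in the RefSeq table (GRCm38.p6), which held 6 of the 10 genes. Each run is the 250 bases before the annotated start, plus strand, 5′ to 3′, and capitals mark the GC box GGGCGG on either strand.
Ina, chr19:47014431-47014680: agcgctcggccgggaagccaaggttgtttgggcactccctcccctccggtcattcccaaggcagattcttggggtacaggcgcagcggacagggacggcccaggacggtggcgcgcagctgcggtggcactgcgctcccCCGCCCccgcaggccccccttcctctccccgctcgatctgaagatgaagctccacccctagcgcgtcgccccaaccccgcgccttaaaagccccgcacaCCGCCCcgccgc
Olig2, chr16:91225300-91225549: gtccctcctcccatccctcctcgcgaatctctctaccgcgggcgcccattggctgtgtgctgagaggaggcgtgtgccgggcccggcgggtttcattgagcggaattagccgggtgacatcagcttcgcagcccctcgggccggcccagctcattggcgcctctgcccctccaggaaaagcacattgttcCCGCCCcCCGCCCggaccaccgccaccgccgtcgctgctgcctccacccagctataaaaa
Both windows held 2 GC boxes, with first bases 111 and 12 bases before the start in Ina and 60 and 53 bases before it in Olig2. Of all 32851 promoters in the table, 32.7% held a GC box. The share of G and C was 70.8% in Ina and 66.8% in Olig2, where the median promoter had 52.4%. The E-box CACGTG, found in 6.02% of all promoters, had no match in the windows of the 6 members. The same was true of the CTCF core motif (2.93%) and of TTCAGCACC (0.301%) and GGACAGC (5.28%), which are parts of the element bound by the repressor REST. TATAAA, found in 12.4% of all promoters, was present in those of Prph, Vim and Olig2. Both strands were searched for each motif, and none of these strings contains another. Only these strings within the 250 bases were searched, so sites elsewhere or with other letters would not be found.

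Ina differed most among the 10 genes. It encodes alpha-internexin, a filament protein of early and central neurons. Its brighter probe set read 7.89, 8.09 and 8.23 in lox/lox arrays, against 6.90, 6.29 and 6.20 in wt/wt arrays (log2 intensity, replicates 1 to 3). Every lox/lox array lay above every wt/wt array, and the wt/wt arrays were spread more widely. Ina averaged 8.07 ± 0.17 in lox/lox cells, against 6.46 ± 0.38 in wt/wt cells (SD, n = 3 each), 3.04-fold higher, with a log2 difference of 1.60 (SE 0.17) that ranked 28 in size among the 19938 genes. In bulk RNA, more cells with Ina RNA and more Ina RNA per cell cannot be told apart.

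The second Ina probe set gave the same order of the genotypes. It read 7.54, 8.02 and 7.98 in lox/lox arrays, against 6.49, 5.46 and 5.70 in wt/wt arrays, 3.90-fold higher. On both probe sets replicate 1 was the lowest of the lox/lox arrays and the highest of the wt/wt arrays. Arrays of the same number were not taken as pairs. The pooled SD of Ina within genotypes was 0.29, larger than that of 99.1% of all genes, and the median gene had 0.11. The log2 difference of Ina lay at 1.47 to 1.82 with each array left out in turn and was 1.44 without both arrays that stood apart.

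**Figure D1:**
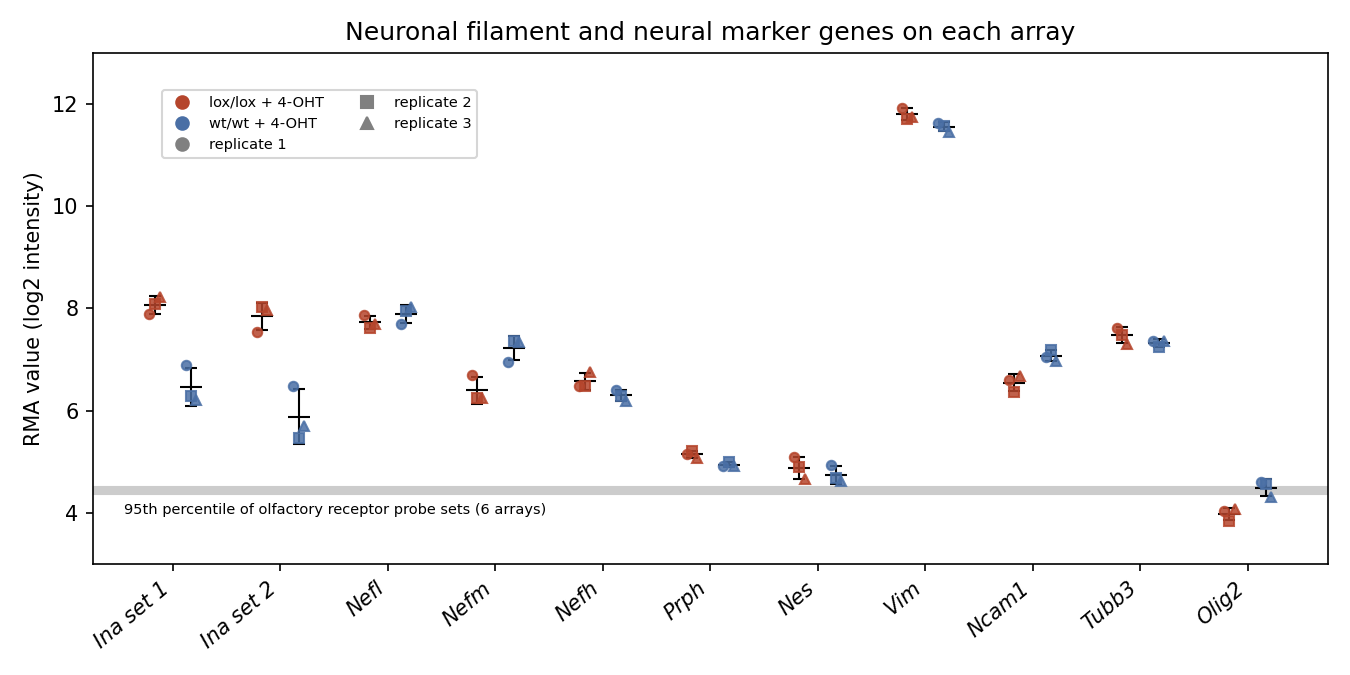
RMA values (log2 intensity) of the 11 probe sets of the 10 genes on each array, lox/lox left of wt/wt; symbols are replicates, bars are the mean ± SD of 3 arrays, and the grey band is the range over arrays of the 95th percentile of olfactory receptor probe sets. Both Ina probe sets are higher on every lox/lox array, Nefm and Ncam1 are lower, and Olig2 lies at or under the grey band in lox/lox arrays.

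A gene counted as called when its adjusted p (limma, Benjamini-Hochberg over all 19938 genes) was under 0.05, as for 6.16% of all genes and for 5.9% of all 21789 single-gene probe sets. Of the 10 members, 4 were called, Ina as higher (2.55% of all genes) and Nefm, Ncam1 and Olig2 as lower (3.61% of all genes). The arrays of the genotypes did not overlap in 7 members, with lox/lox above in 4 and below in 3, beside 22.8%, 10.1% and 12.7% of all genes. Nothing is read from these counts, since the comparison was known when the genes were chosen. The same holds for the counts of the related lists below, which were written with earlier results of these data known. The median log2 difference of the 10 was 0.14, beside -0.0079 for all genes. Without lox/lox replicate 2 the called members were 2, Ina and Nefm, and without both arrays that stood apart they were 2, Ina and Ncam1.

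The chains that form filaments with alpha-internexin differed among themselves. Nefm was lower and called, Nefl overlapped between the genotypes, and Nefh lay slightly higher, as Ina did, without a call. Nefm, the medium neurofilament chain, read 6.70, 6.24 and 6.24 in lox/lox arrays, against 6.96, 7.37 and 7.34 in wt/wt arrays. Every lox/lox array lay below every wt/wt array, with the replicates 1 closest to each other. Nefm averaged 6.39 ± 0.27 in lox/lox cells, against 7.22 ± 0.23 in wt/wt cells (SD, n = 3 each), 1.77-fold lower, with a log2 difference of -0.83 (SE 0.15). It was called in each fit without 1 array (-0.98 to -0.75) and was not without both arrays that stood apart (-0.68). Replicate 1 had the highest Nefm and the lowest Ina of the lox/lox arrays, and the lowest Nefm and the highest Ina of the wt/wt arrays. The shared number does not make these arrays a pair.

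Nefl, the light chain that neurofilament assembly depends on, lies beside Nefm on chromosome 14. It read 7.86, 7.61 and 7.70 in lox/lox arrays, against 7.68, 7.95 and 8.02 in wt/wt arrays, and the genotypes overlapped. Its log2 difference was -0.16 (SE 0.11). Nefh, the heavy chain of mature large axons, read 6.48, 6.48 and 6.76 in lox/lox arrays, against 6.41, 6.28 and 6.19 in wt/wt arrays. The lox/lox arrays lay above the wt/wt arrays by a narrow margin, and the log2 difference of 0.28 (SE 0.10) was not called.

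Prph, which encodes peripherin and lies on chromosome 15 like Rad21, read 5.14, 5.22 and 5.08 in lox/lox arrays, against 4.91, 4.999 and 4.91 in wt/wt arrays. The genotypes did not overlap, and the log2 difference of 0.21 (SE 0.08) was not called. Nes, the filament gene of neural stem cells, read 5.09, 4.89 and 4.65 in lox/lox arrays, against 4.94, 4.68 and 4.61 in wt/wt arrays. The genotypes overlapped, with a log2 difference of 0.13 (SE 0.12). Prph was 0.41 to 0.78 and Nes 0.12 to 0.64 above the olfactory receptor mark, on the log2 scale. Near this mark the background signal keeps values up, so a fold there understates a change.

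Vim, the filament of mesenchymal and many cultured cells, read 11.93, 11.72 and 11.76 in lox/lox arrays, against 11.63, 11.57 and 11.46 in wt/wt arrays. The genotypes did not overlap, and the log2 difference of 0.24 (SE 0.09) was called only when the variance prior was fitted with a trend and robustly. Vim is also high in fibroblasts, which serve as feeders in some ES cultures. The 12 fibroblast markers measured summed to a linear intensity of 398 to 452 in lox/lox arrays, against 379 to 446 in wt/wt arrays. Of the 12, 8 were above the olfactory receptor mark on every lox/lox array and 7 on every wt/wt array. Dcn, Lum and Postn were under the mark on every array. None of the 12 was called in limma, and 2, Dcn (0.21) and Twist1 (0.21), had an unadjusted p under 0.05. Thy1 and Col3a1 had 0.23 and 0.14 (adjusted p = 0.345 and 0.502).

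Ncam1 and Olig2 were lower. Ncam1, the neural cell adhesion molecule, read 6.60, 6.36 and 6.68 in lox/lox arrays, against 7.06, 7.19 and 6.97 in wt/wt arrays, without overlap. It was 1.44-fold lower, with a log2 difference of -0.53 (SE 0.10), and was not called without lox/lox replicate 2 (-0.43). Olig2, a bHLH factor of motor neuron and oligodendrocyte precursors, read 4.03, 3.84 and 4.07 in lox/lox arrays, against 4.60, 4.57 and 4.31 in wt/wt arrays, also without overlap. Its log2 difference was -0.51 (SE 0.10). It was not called without lox/lox replicate 2 (-0.44), without wt/wt replicate 2 (-0.47) or without both arrays that stood apart (-0.52). Olig2 was above the olfactory receptor mark on 0 of 3 lox/lox and 2 of 3 wt/wt arrays, so its level in lox/lox cells cannot be told from background signal.

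Tubb3, the beta-tubulin most used as a neuronal marker, read 7.62, 7.48 and 7.31 in lox/lox arrays, against 7.37, 7.24 and 7.36 in wt/wt arrays. The genotypes overlapped, and the log2 difference was 0.15 (SE 0.09).

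**Figure D2:**
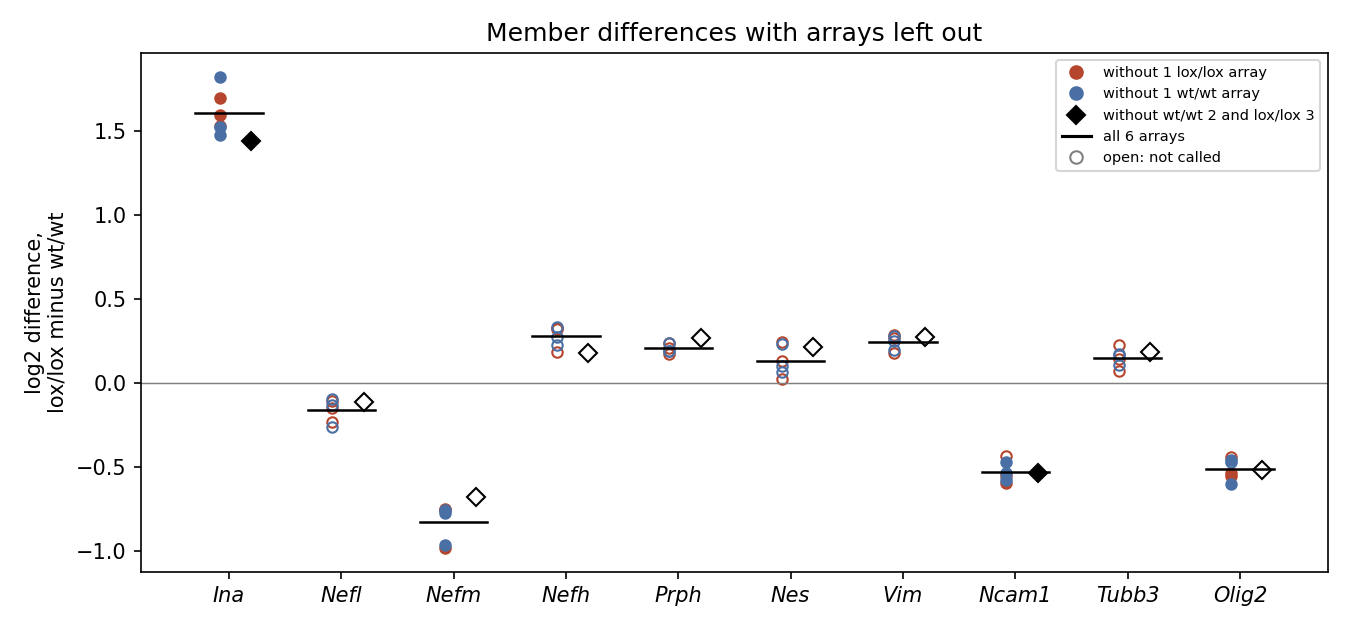
Log2 difference (lox/lox minus wt/wt) of each of the 10 genes with all 6 arrays (line), with 1 array left out (circles, coloured by the genotype of that array) and without lox/lox replicate 3 and wt/wt replicate 2 (diamonds); filled symbols were called. Ina stays between 1.44 and 1.82, and each of the 10 genes has the same sign in all these fits.

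Other intermediate filament genes mostly had small differences. Of 20 measured, 1 was higher, 0 were lower and 19 were not called in limma, 2 had an unadjusted p under 0.05, and the median log2 difference was 0.03. Krt19, a keratin of simple epithelia, averaged 6.06 ± 0.24 in lox/lox cells, against 5.42 ± 0.14 in wt/wt cells (SD, n = 3 each), a log2 difference of 0.65 (SE 0.12, limma adjusted p = 0.0115). It was not called without wt/wt replicate 3 (adjusted p = 0.0569) or without both arrays that stood apart (adjusted p = 0.0754). Krt17, another epithelial keratin, had -0.31 (adjusted p = 0.0653). Lmnb1 and Lmnb2, which encode lamins of the nuclear lining, had -0.15 and 0.14 (adjusted p = 0.36 and 0.341). Gfap, the astrocyte filament gene, was under the olfactory receptor mark on all arrays.

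Of 8 measured genes that link filaments to other structures or turn them over, 1 was lower, 0 were higher and 7 were not called. Dsp, the desmosomal linker desmoplakin, had a log2 difference of -0.36 (SE 0.09, limma adjusted p = 0.0374). Its call held in 1 of the 6 fits without 1 array, that without wt/wt replicate 1, and the adjusted p was up to 0.155 without lox/lox replicate 1 or 2 or 3 or wt/wt replicate 2 or 3. Ppl, Macf1 and Plec, which encode periplakin, a microtubule-actin crosslinker and plectin, had 0.19, -0.13 and 0.10 (adjusted p = 0.286, 0.576 and 0.677).

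Genes of neuronal microtubules and growing axons included several that were higher. Of 19 measured, 5 were higher, 1 was lower and 13 were not called in limma, which is 31.6% called, beside 6.16% of all genes. The median log2 difference was 0.17, and 12 of the 19 had an unadjusted p under 0.05. As for the other lists, nothing is read from this share. Dpysl3, a collapsin response mediator of axon guidance, read 6.27, 6.27 and 6.13 in lox/lox arrays, against 5.21, 5.02 and 5.33 in wt/wt arrays (log2 difference 1.04, SE 0.09, adjusted p = 0.00024). Crmp1 of the same family read 5.29, 5.65 and 5.68 in lox/lox arrays, against 4.94, 4.75 and 4.73 in wt/wt arrays (log2 difference 0.74, SE 0.11, adjusted p = 0.00372). For both genes each lox/lox array lay above each wt/wt array, and both were called in all 6 fits without 1 array. Crmp1 was not called without both arrays that stood apart (adjusted p = 0.0548).

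The other called axon genes lost their calls in 3 to 6 of the 6 fits without 1 array, while their signs stayed the same. Map1b, a microtubule-associated protein of growing axons, had 0.48 (SE 0.10, limma adjusted p = 0.0181) and was not called without lox/lox replicate 3 or wt/wt replicate 2 or 3 (highest adjusted p 0.0726), its log2 difference lying at 0.39 to 0.55. Stmn3, a stathmin that destabilises microtubules, had 0.37 (SE 0.08, limma adjusted p = 0.0191) and was not called without lox/lox replicate 2 or wt/wt replicate 2 or 3 (highest 0.0945), nor with the mean of its probe sets; with 1 array left out its log2 difference was 0.33 to 0.40. Uchl1, a neuronal deubiquitinase, and Dpysl2, a relative of Dpysl3, fall outside the rule for named genes and were named after their values were seen. Uchl1 had 0.41 (SE 0.11, limma adjusted p = 0.045) and was called in 1 of the 6 fits without 1 array, that without lox/lox replicate 1. Dpysl2, the gene that was lower, had -0.36 (SE 0.09, limma adjusted p = 0.0441) and was called in 0 of those 6 fits. In those fits the log2 difference was 0.33 to 0.53 for Uchl1 and -0.42 to -0.29 for Dpysl2, and the adjusted p reached 0.167 and 0.152. Across the fits without 1 array 2 to 6 axon genes were called, and without both arrays that stood apart 1 was, Dpysl3. The neuronal markers Map2, Gap43 and Mapt, also named after their values were seen, had 0.43, 0.27 and -0.19 (adjusted p = 0.0755, 0.219 and 0.296).

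**Figure D3:**
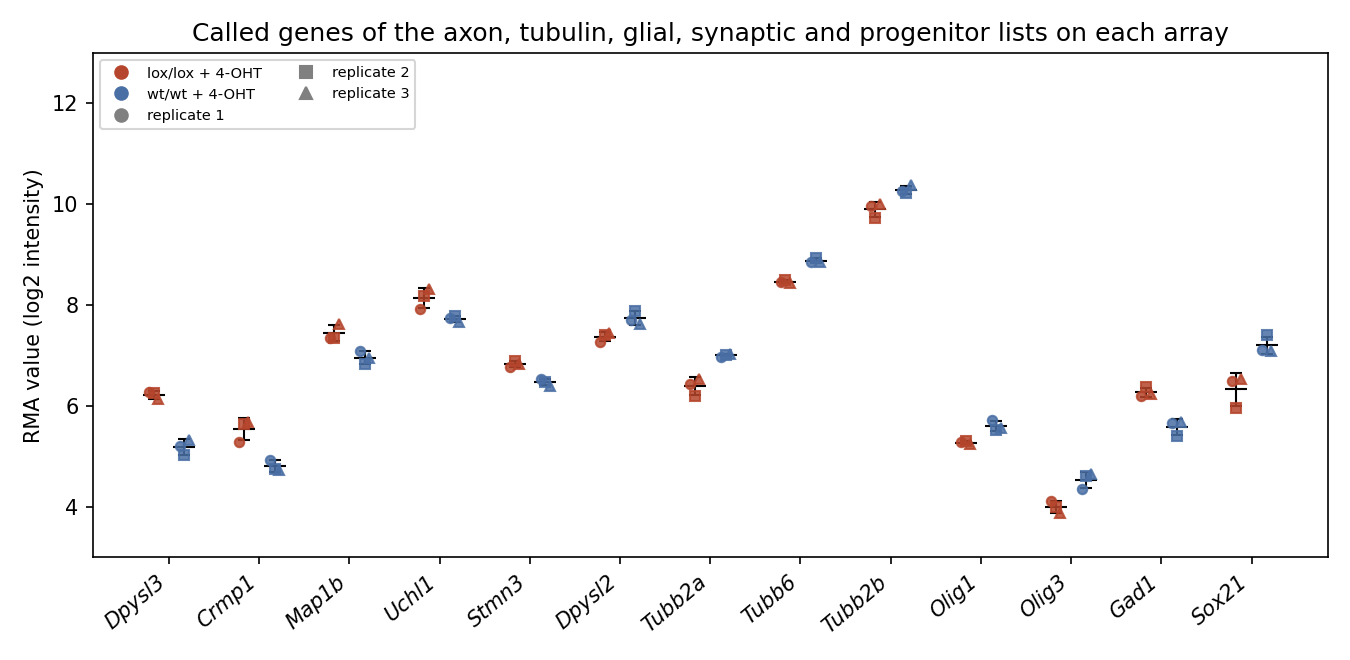
RMA values (log2 intensity) of 13 called genes of the related lists on each array, lox/lox left of wt/wt; symbols are replicates and bars are the mean ± SD of 3 arrays. Dpysl3, Crmp1, Map1b, Uchl1, Stmn3 and Gad1 are higher and the other 7 genes are lower on every lox/lox array than on any wt/wt array.

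Tubulin genes that were called were lower. Of 11 measured, 3 were lower, 0 were higher and 8 were not called in limma, and 6 had an unadjusted p under 0.05. The median log2 difference was -0.10. The 3 called genes encode beta-tubulins, like Tubb3. Tubb2a read 6.45, 6.20 and 6.54 in lox/lox arrays, against 6.98, 7.02 and 7.03 in wt/wt arrays (1.53-fold lower, log2 -0.62, SE 0.10, adjusted p = 0.00399). Tubb6 read 8.45, 8.50 and 8.44 in lox/lox arrays, against 8.85, 8.93 and 8.86 in wt/wt arrays (1.34-fold lower, log2 -0.42, SE 0.07, adjusted p = 0.00742). Neither overlapped between the genotypes, and both were called in all 6 fits without 1 array. Tubb6 was not called without both arrays that stood apart (adjusted p = 0.0558). Tubb2b, at -0.39 (SE 0.09, limma adjusted p = 0.0365), was called in 1 of those 6 fits, that without lox/lox replicate 3, with an adjusted p of up to 0.149 in the others. Tubg1, the gamma-tubulin of microtubule nucleation, had -0.24 (adjusted p = 0.107). Beta-tubulin transcripts are alike in sequence, and signal shared between their probe sets was not tested.

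Of 11 measured genes of neural adhesion and of polysialic acid, the sugar that Ncam1 carries, 0 were called in limma and 2 had an unadjusted p under 0.05. The median log2 difference was 0.05. Cdh2, the neural cadherin, had -0.30 (adjusted p = 0.162). Alcam, L1cam and Cntn2, adhesion molecules of the same superfamily as Ncam1, had 0.17, -0.15 and 0.11 (adjusted p = 0.275, 0.353 and 0.559). Ncam2 and St8sia4, an enzyme that adds polysialic acid to Ncam1, were under the olfactory receptor mark on all arrays.

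Among 22 measured neural progenitor genes 1 was lower, 0 were higher and 21 were not called in limma, with a median log2 difference of -0.04. An unadjusted p under 0.05 was found for 5 of the 22. Sox21, a relative of Sox2, read 6.50, 5.95 and 6.54 in lox/lox arrays, against 7.11, 7.40 and 7.09 in wt/wt arrays. Every lox/lox array was below every wt/wt array, 1.83-fold in the mean (log2 -0.87, SE 0.15, adjusted p = 0.00763), and it was called in all 6 fits without 1 array. Msi1, an RNA-binding protein of neural stem cells, had -0.40 (adjusted p = 0.117) and was called without lox/lox replicate 3 (adjusted p = 0.037). Pax6, a regulator of forebrain and eye, and Nr2f2 had 0.25 and -0.26 (adjusted p = 0.136 and 0.138). Sox1, an early marker of neural plate named after its values were seen, averaged 7.17 ± 0.12 in lox/lox cells, against 7.09 ± 0.25 in wt/wt cells (SD, n = 3 each, limma adjusted p = 0.825).

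Of 29 measured proneural and neuronal regulators 0 were called in limma and 3 had an unadjusted p under 0.05, with log2 differences of -0.19 to 0.22. Tlx3 and Neurod1, factors of neuronal differentiation, had -0.19 and 0.22 (adjusted p = 0.219 and 0.234). Rbfox3, the NeuN antigen of mature neurons, had 0.22 (adjusted p = 0.262). Of the 29, 8 were under the olfactory receptor mark on all arrays, Neurod1, Isl1 and Elavl4 among them.

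Of 18 measured glial genes 2 were lower, 0 were higher and 16 were not called in limma, with a median log2 difference of -0.04. Both are relatives of Olig2. Olig3 read 4.12, 4.01 and 3.88 in lox/lox arrays, against 4.35, 4.60 and 4.65 in wt/wt arrays (log2 -0.53, SE 0.10, adjusted p = 0.012), and like Olig2 it was above the olfactory receptor mark on 0 of 3 lox/lox and 2 of 3 wt/wt arrays. Olig1 read 5.28, 5.30 and 5.25 in lox/lox arrays, against 5.73, 5.53 and 5.57 in wt/wt arrays (log2 -0.33, SE 0.08, adjusted p = 0.0387). For each of Olig1, Olig2 and Olig3 every lox/lox array was below every wt/wt array. Olig3 was not called without lox/lox replicate 2 or wt/wt replicate 3 (highest adjusted p 0.0617), and Olig1 in none of the 6 fits without 1 array (adjusted p 0.0506 to 0.116). Aldh1l1, an astrocyte enzyme, had -0.28 (adjusted p = 0.091), and Nkx2-2, a factor of ventral spinal cord, was under the mark on all arrays.

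Of 18 measured synaptic and secretory genes 1 was higher, 0 were lower and 17 were not called in limma, with a median log2 difference of 0.02. Gad1, the enzyme that makes the transmitter GABA, read 6.20, 6.37 and 6.24 in lox/lox arrays, against 5.66, 5.41 and 5.69 in wt/wt arrays. It was 1.60-fold higher without overlap (log2 0.68, SE 0.10, adjusted p = 0.00222) and called in all 6 fits without 1 array. Syn1 and Snap25, of synaptic vesicles and their fusion, had -0.18 and 0.22 (adjusted p = 0.269 and 0.301). Of the 18, 7 were under the olfactory receptor mark on all arrays, Gad2 and Gria2 among them.

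**Figure D4:**
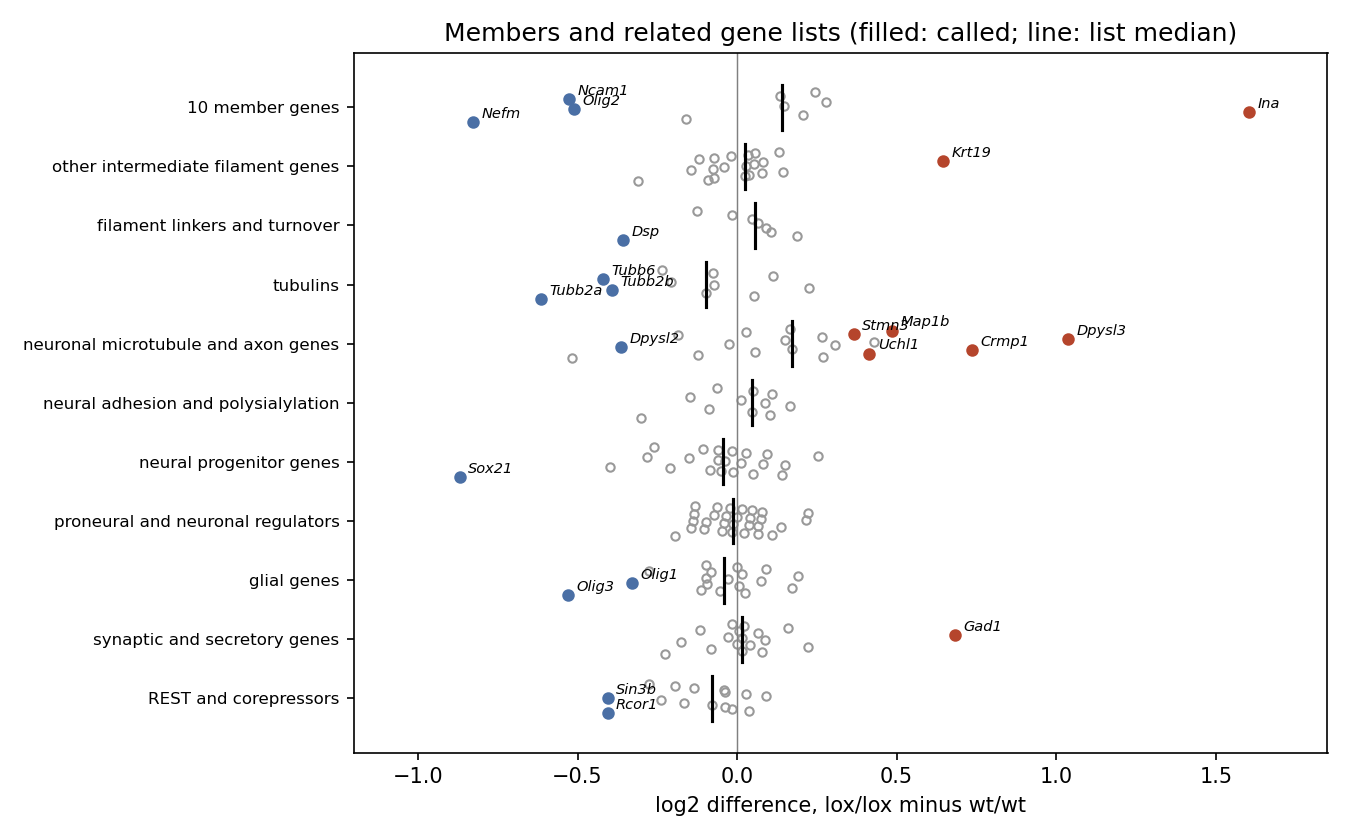
Log2 difference (lox/lox minus wt/wt) of each measured gene in the set of 10 and in 10 related lists; filled points were called, open points were not, and the black line is the median of each list. In the axon list 5 of 6 called genes lie to the right, and the called tubulin, glial and REST list genes (3, 2 and 2) lie to the left.

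REST is a repressor that keeps many neuronal genes silent outside neurons. Rest averaged 9.48 ± 0.15 in lox/lox cells, against 9.39 ± 0.06 in wt/wt cells (SD, n = 3 each), a log2 difference of 0.09 (SE 0.09, limma adjusted p = 0.707). Of 15 measured genes of REST and its corepressors 2 were lower, 0 were higher and 13 were not called, with a median of -0.08. An unadjusted limma p under 0.05 was found for 5 of the 15. Sin3b, a scaffold of histone deacetylases, averaged 7.25 ± 0.10 in lox/lox cells, against 7.66 ± 0.07 in wt/wt cells (log2 -0.40, limma adjusted p = 0.0175). Rcor1, the CoREST scaffold, averaged 7.19 ± 0.14 in lox/lox cells, against 7.60 ± 0.06 in wt/wt cells (log2 -0.41, limma adjusted p = 0.0238). Sin3b was not called without lox/lox replicate 2 or wt/wt replicate 3 (highest adjusted p 0.0878), and Rcor1 was not called without lox/lox replicate 2 or wt/wt replicate 2 or 3 (highest adjusted p 0.103). Ehmt2, a histone H3 methyltransferase, and Hdac2, a histone deacetylase, had -0.28 and -0.24 (adjusted p = 0.0521 and 0.19). Without both arrays that stood apart, neither Sin3b nor Rcor1 was called.

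Markers of ES cells and of other lineages were measured beside the members. Of the 12 ES cell markers 4 were lower and 1, Utf1 (0.31), was higher in limma. Of the 12, 10 had an unadjusted p under 0.05, and the median log2 difference was -0.19. All lox/lox arrays lay below all wt/wt arrays in 9 of the 12 and above them in 2, beside 12.7% and 10.1% of all genes. Fgf4, Sox2, Nanog and Esrrb, a growth factor and transcription factors of ES cells, had -0.57, -0.48, -0.55 and -0.34 (adjusted p = 0.00253, 0.0036, 0.00473 and 0.0309). The calls of Esrrb and Utf1 held in 1 and 0 of the 6 fits without 1 array. Of 9 primitive endoderm markers 0 were called in limma and 0 had an unadjusted p under 0.05. Their linear intensities summed to 197 to 219 in lox/lox arrays, against 180 to 236 in wt/wt arrays. Of the 9, 5 were above the olfactory receptor mark on every lox/lox array and 4 on every wt/wt array. Ttr, Sox17 and Dab2 were under the mark throughout. Of 6 mesoderm markers 1 was lower, Gsc (-0.66, adjusted p = 0.0116), not called without lox/lox replicate 2 or wt/wt replicate 3. The mesoderm sums were 210 to 225 in lox/lox arrays, against 246 to 283 in wt/wt arrays. Of the 6, 4 were above the mark on every lox/lox array and 5 on every wt/wt array, with Mixl1 under it. Of 7 markers of the neural crest, a source of neurons with peripherin, 1 was lower, Foxd3 (-0.59, adjusted p = 0.0254), not called without lox/lox replicate 2 or 3 or wt/wt replicate 2. The neural crest sums were 336 to 375 in lox/lox arrays, against 385 to 415 in wt/wt arrays. Of the 7, 5 were above the mark on every lox/lox array and 5 on every wt/wt array, with Snai2 under it. In limma 2 mesoderm and 3 neural crest markers had an unadjusted p under 0.05. The part of the ES cell and lineage markers in the differences of the 10 genes was not tested.

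The chromosomal neighbours of Ina had small differences. Among the 5 measured genes on each side on chromosome 19, 0 of 10 were called in limma and 2, As3mt and Nt5c2, had an unadjusted p under 0.05. Their log2 differences ran from -0.26 to 0.25. Nt5c2, a nucleotidase, is the nearest measured gene before Ina in order of start. By annotated positions it overlaps the start of Ina, so the Ina promoter window lies within Nt5c2. Nt5c2 had 0.25 (SE 0.08, adjusted p = 0.0928) and was called as higher after quantile normalization (0.28, adjusted p = 0.0351), in none of the other 13 alternative fits. Pcgf6, the nearest after Ina and a Polycomb subunit, had 0.08 (adjusted p = 0.705).

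Around Nefl and Nefm on chromosome 14, 2 of 10 neighbours were lower and 8 were not called. Dock5, an activator of Rac and the nearest measured gene on the side of Nefl, averaged 6.48 ± 0.05 in lox/lox cells, against 7.40 ± 0.04 in wt/wt cells (SD, n = 3 each). It was 1.88-fold lower (log2 -0.91, SE 0.07, limma adjusted p = 0.000119) and was called in all 14 alternative fits. Kctd9 had -0.42 (SE 0.10, limma adjusted p = 0.0319) and was not called without lox/lox replicate 2 or 3 or wt/wt replicate 2 or 3 (highest adjusted p 0.135). Nefl, which lies between Dock5 and Nefm, had the smaller difference of -0.16.

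**Figure D5:**
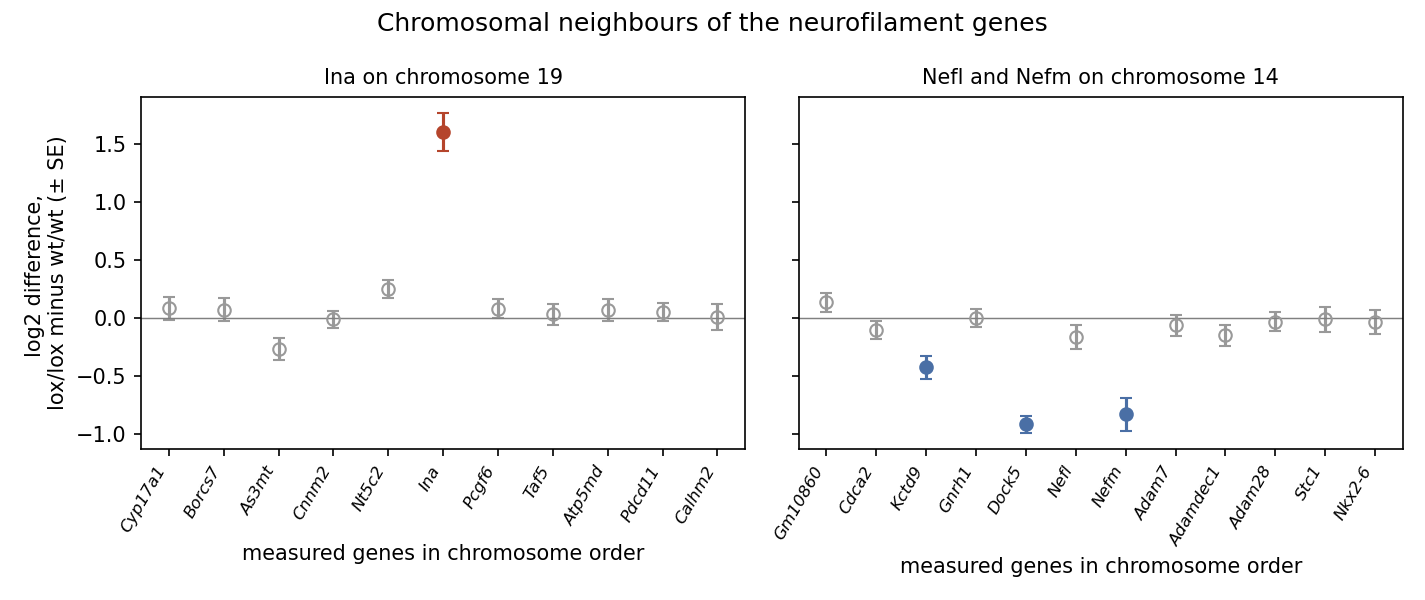
Log2 difference (lox/lox minus wt/wt, ± SE) of Ina and of Nefl and Nefm with the 5 measured genes on each side, in chromosome order; filled points were called. Ina stands at 1.60 among 10 neighbours between -0.26 and 0.25, while Dock5 and Nefm stand at -0.91 and -0.83 with Nefl at -0.16 between them.

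Genes with a pattern like that of Ina were looked for among the 1200 named genes that were called. Over the 6 arrays, Cgref1, Snai1, Hook2, Ephx2 and Aasdhppt had the highest Pearson r with Ina (0.997, 0.995, 0.994, 0.994 and 0.994). These r contain the genotype difference by which called genes were taken, and no p is given. Their log2 differences were 0.34, 0.55, 0.52, 0.87 and 0.41. In the deviations from the genotype means, Lefty2, an inhibitor of Nodal signalling, came first (r = 0.9996), followed by Aasdhppt, Pck2, Rasa4 and Dusp3 (0.9903, 0.979, 0.978 and 0.977). This r leaves out the genotype difference. It was ranked over the 1200 genes and rests on 6 arrays, so high values can come from the ranking itself. No p is given for it. Pck2 was lower in lox/lox cells, unlike Ina (log2 difference -0.42). Rasa4 and Dusp3 were higher (0.46 and 0.62). Lefty2 read 9.24, 9.47 and 9.61 in lox/lox arrays, against 9.06, 8.44 and 8.33 in wt/wt arrays. Like Ina it was lowest of the lox/lox arrays and highest of the wt/wt arrays in replicate 1, though these arrays were not taken as a pair. Its log2 difference was 0.83 (SE 0.17, limma adjusted p = 0.0185), and it was not called without lox/lox replicate 2 or 3 or wt/wt replicate 2 or 3 (highest adjusted p 0.083).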

How the data were processed

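The deposited log2 values of 35556 probe sets were made by the authors with RMA and affy, per the submitters' processing notes. The sources used here give neither versions nor the genome build. RMA gives arrays like distributions, so an overall change of RNA per cell cannot be seen. By the platform annotation 21789 probe sets had 1 gene symbol, 1621 had several and 12146 are unnamed here. The brightest probe set stood for each of 19938 genes.

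The difference lox/lox minus wt/wt was fitted for all genes with limma 3.58.1 (lmFit and eBayes, R 4.3.3), without covariates. The code was tested on simulated arrays. The members and lists were chosen with earlier results of these data known. Named by rule were Rad21, Rest, the members, up to 4 genes of smallest p per list, called neighbours and the genes most like Ina. Listed genes without a single-gene probe set were not analysed here. Alternatives were quantile normalization, median centring, removal of dim genes, other probe set rules, a trended and robust prior, a replicate block, arrays left out, and adjusted p under 0.01. For the neighbours they were added after seeing the data. Deviations of same-numbered arrays correlated at 0.10, -0.23 and -0.10, so the numbers were not taken as pairs.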

Additional observations from a re-analysis of the deposited data

How the results depend on the processing

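Each of Ina, Nefm, Ncam1 and Olig2 kept its sign in every alternative that could be run for it. A value of a member counted as unchanged when it moved by less than its SD within genotypes, whatever its call. A value of another gene counted so when it kept direction and side of the threshold. Over 85 single genes, 1025 alternative values were unchanged. That count includes genes not called with all 6 arrays that stayed uncalled, so it does not measure how stable the calls were. Of the genes that are not members, 139 values lost a call and 5 gained one. Of the members, 1 value moved by more than the spread (Prph, 0.27 without both arrays that stood apart). Ina, Nefm, Ncam1 and Olig2 were called in 14 of 14, 13 of 14, 12 of 14 and 9 of 13 alternatives, and Vim in 1 of 14. Mesp1, called in no fit, had -0.12 with all arrays and -0.21 to 0.0087 with 1 array left out, positive without lox/lox replicate 2. Called genes with all 6 arrays, and their range over the 6 fits without 1 array, were 1228 (626 to 1132) over all genes, 4 (2 to 4) of the members, 1 (0 to 1) of other filament genes, 1 (0 to 1) of linkers, 3 (2 to 3) of tubulins, 6 (2 to 6) of axon genes, 1 (1 to 2) of progenitor genes, 2 (0 to 1) of glial genes, 2 (0 to 2) of REST and corepressors and 2 (1 to 2) of neighbours. Over all genes the count was 626 without lox/lox replicate 2, 661 without wt/wt replicate 3 and 806 without wt/wt replicate 2. Without both arrays that stood apart it was 697, with 2 members, 0 other filament genes, 0 linkers, 1 tubulin, 1 axon gene, 0 glial genes, 0 of REST and corepressors and 1 neighbour. At adjusted p under 0.01 it was 553, with 2 members, 0 other filament genes, 0 linkers, 2 axon genes, 0 glial genes, 0 of REST and corepressors and 1 neighbour. Quantile normalization gave 2 other filament genes and 3 neighbours, with Nt5c2 beside Ina added as higher (limma adjusted p = 0.0351, and 0.0521 to 0.244 in its other alternatives). Removal of 8519 dim genes, Olig2 among them, gave 2 other filament genes and 1 glial gene. The trended and robust prior gave 0 linkers and 1 glial gene. With the replicate block 1086 genes were called over all genes, with 0 linkers, 1 glial gene and 1 neighbour, and 1 of 6 arrays was closest to an array of its own number. The cause was not tested, beyond fewer arrays or genes entering some fits. The number of arrays and, for Olig2, Olig3, Nes and Prph, signal near background limit the precision.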
